A study of Mus musculus with 11 samples.

Results

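Expression of 31 genes of sterol and fatty acid synthesis was followed in mouse microglia, the resident macrophages of the brain, on 11 single-colour arrays. The genes were taken by name from the enzymes of the mevalonate, cholesterol and fatty acid pathways and from the proteins that control them. Array probes were assigned to genes through RefSeq accessions, which gave a probe for 30 of the 31, and these 30 were all among the 19565 genes tested, of 23283 with a matched probe. Srebf1, a transcription factor of lipid synthesis, had no matched probe and was not analysed here.

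All cells came from C57BL/6N mice. Adult microglia of females aged 12 to 24 weeks (A_FACS, 2 arrays) and newborn microglia of both sexes from postnatal days 1 to 3 (NB_FACS, 3 arrays) were sorted by flow cytometry on intermediate CD45 and high CX3CR1 after trypsin digestion and used without culture. The cultured newborn cells were grown in mixed glial flasks, each seeded from 2 to 3 brains and fed 20% L-929 conditioned medium, a source of macrophage colony-stimulating factor. They were shaken off between days 18 and 34 after isolation and kept for 1 day in medium with 10% serum, either without added cytokines (NB_Control, 3 arrays) or with 3 human cytokines, each at 100 ng/mL (NB_Stim, 3 arrays): TGF-β1, the macrophage receptor ligand IL-34, and the chemokine CX3CL1. Sorting against shaking, time since birth and culture were therefore not separated when cultured and sorted cells were compared, and both cultured groups were in medium whose serum contains lipids. Age and sex were not separated when adult and newborn cells were compared. The study's methods count n as biological replicates, but the sample labels do not tie the arrays to animals or flasks, so the p-values measure the spread between these arrays.

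Cholesterol is built from acetyl-CoA through mevalonate, farnesyl diphosphate, squalene and lanosterol, and saturated fatty acids are built from the same precursor by acetyl-CoA carboxylase and fatty acid synthase before elongases and desaturases modify them. Most of these genes are activated by the SREBP transcription factors, which the escort protein SCAP carries from the endoplasmic reticulum to the Golgi when sterols are low and which the INSIG proteins hold back when sterols are plentiful. In the brain cholesterol is made locally, mainly by glia, because little crosses the blood-brain barrier.

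SREBP binds short sterol regulatory elements, often beside CCAAT boxes bound by NF-Y, and promoters of 4 members are shown, the 3 in which the core of such an element was found and that of Insig1, the member called lower with cytokines. The sequences are from RefSeq on GRCm38.p6 and run 5′ to 3′ from 250 bases before to 50 bases after the annotated start. Capitals mark the core TCACNCCA and the box CCAAT, each searched on both strands (CCAAT reads ATTGG on the other). They lie at chr13:119690101-119690400 on the plus strand for Hmgcs1, chr8:64733529-64733828 on the minus strand for Msmo1, chr15:82147019-82147318 on the plus strand for Srebf2 and chr5:28071162-28071461 on the plus strand for Insig1.
Hmgcs1: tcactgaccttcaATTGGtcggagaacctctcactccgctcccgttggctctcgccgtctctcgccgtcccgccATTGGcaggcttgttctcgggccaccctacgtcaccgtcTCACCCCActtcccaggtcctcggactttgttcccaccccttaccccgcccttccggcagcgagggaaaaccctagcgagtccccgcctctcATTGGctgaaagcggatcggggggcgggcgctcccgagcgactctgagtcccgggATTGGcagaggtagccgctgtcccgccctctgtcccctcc
Msmo1: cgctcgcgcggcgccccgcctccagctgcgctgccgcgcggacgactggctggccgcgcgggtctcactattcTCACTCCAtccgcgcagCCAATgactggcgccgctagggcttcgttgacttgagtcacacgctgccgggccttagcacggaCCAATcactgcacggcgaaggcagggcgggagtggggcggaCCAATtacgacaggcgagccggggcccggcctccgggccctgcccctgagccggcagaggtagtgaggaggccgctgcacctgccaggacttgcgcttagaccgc
Srebf2: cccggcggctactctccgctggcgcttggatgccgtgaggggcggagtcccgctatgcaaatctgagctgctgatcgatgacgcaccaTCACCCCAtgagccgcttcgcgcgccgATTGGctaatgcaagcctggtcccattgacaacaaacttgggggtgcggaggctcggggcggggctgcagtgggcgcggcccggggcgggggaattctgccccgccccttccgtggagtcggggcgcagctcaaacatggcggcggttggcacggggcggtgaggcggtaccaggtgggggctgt
Insig1: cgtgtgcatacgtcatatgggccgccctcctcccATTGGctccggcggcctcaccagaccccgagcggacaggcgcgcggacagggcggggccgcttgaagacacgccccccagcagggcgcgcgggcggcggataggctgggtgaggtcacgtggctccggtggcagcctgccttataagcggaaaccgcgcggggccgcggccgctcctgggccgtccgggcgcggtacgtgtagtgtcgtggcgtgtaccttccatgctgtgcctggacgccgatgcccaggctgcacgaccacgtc

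The core began 137 bases before the start in Hmgcs1, 177 bases before it in Msmo1 and 162 bases before it in Srebf2. It was in 3 of the 33 promoters listed for 25 members, and in 4.36% of all 32851 promoters of that length. The CCAAT box was in 21 of the 33, with 4 copies in Hmgcs1, 3 in Msmo1 and 1 each in Srebf2 and Insig1, and in 37.4% of all promoters. These letters were chosen after the promoters had been read, and a match is a description, not a binding site.

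Levels below are quantile normalised log2 intensities, in which 1 unit is a doubling, and differences are between group means on the same log2 scale. A gene was called when limma's moderated two-sided test gave an adjusted p under 0.05 over all genes tested. Each array had 66.8% to 80.5% of its probes well above background, and the number of arrays limits the precision. Slide 1 held 8 arrays, among them replicates 1 and 2 of each newborn group, and slide 2 held replicate 3 of each. Replicates 1 and 2 of each cultured group were closer to each other (median absolute log2 difference over all genes 0.119 and 0.128) than to replicate 3 (0.298 to 0.363). The microglial label was checked against 9 measured markers of the 10 listed, all well above background on every array, of which 5 were called lower in NB_Control than in NB_FACS and 4 higher in NB_Stim than in NB_Control. Their log2 summed level was 18.8 to 18.84 in A_FACS, 18.3 to 18.37 in NB_FACS, 17.52 to 17.83 in NB_Control and 18.19 to 18.36 in NB_Stim.

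Markers of other cells moved with the groups. Of all genes, 29.7% were called in NB_Control, 31.1% in NB_Stim and 22.7% in A_FACS, each against NB_FACS. All 15 measured proliferation genes were called lower in NB_Control and in NB_Stim than in NB_FACS, and 14 were called lower in A_FACS. Their log2 summed level was 15.77 to 16.04 in NB_FACS, 13.44 to 14.02 in NB_Control, 13.08 to 13.47 in NB_Stim and 13.52 to 13.58 in A_FACS. Of 7 measured fibroblast markers, 5 were called higher in NB_Control and 6 in NB_Stim, at summed levels of 14.89 to 15.15 and 14.05 to 15.23 against 9.91 to 10.19 in NB_FACS and 10.09 to 11.15 in A_FACS, and Lum was not above background on every NB_FACS array. Of 6 measured oligodendrocyte lineage markers, 5 were called higher in NB_Stim than in NB_FACS, at 13.21 to 13.65 against 9.73 to 9.85, with NB_Control at 10.61 to 11.14 and A_FACS at 9.51 to 10.08. Cspg4 was the 1 marker of the 6 called higher in NB_Stim than in NB_Control, and Pdgfra was not above background on every A_FACS array. Cspg4 alone had log2 levels of 13.48, 13.42 and 12.41 in NB_Stim, against 9.67, 9.59 and 9.34 in NB_Control. It thus made most of the summed level in NB_Stim. Of 7 measured endothelial markers, 5 were called lower in NB_Control, and in NB_Stim 4 were called lower and Flt1 higher, at 8.44 to 9.45 in NB_Control and 10.64 to 10.73 in NB_Stim against 12.14 to 12.6 in NB_FACS and 12.56 to 13.62 in A_FACS, and Tek and Emcn were not above background on every array of either cultured group. Border macrophage markers (9 measured) were called lower for 7 in A_FACS, at 10.33 to 10.72 against 13.61 to 13.89 in NB_FACS, and went both ways in culture, with 4 called higher and 3 lower in NB_Control and 3 higher and 4 lower in NB_Stim. Their summed level was 15.51 to 16.46 in NB_Control and 14.33 to 15.06 in NB_Stim. Pf4, Ms4a7, Cd36 and Stab1 had higher means and Cd163, Lyve1 and Cbr2 lower means in both than in NB_FACS. Mrc1 had mean levels of 13.15 in NB_FACS, 13.33 in NB_Control and 8.08 in NB_Stim, and F13a1 of 9.01, 9.63 and 8.04. Of 7 measured erythroid markers, 4 were called lower in each of A_FACS, NB_Control and NB_Stim than in NB_FACS, at summed levels of 13.08 to 14.64, 8.31 to 8.36 and 8.36 to 8.55 against 17.18 to 17.65, and Hbb-bt and Alas2 were not above background on every array of either cultured group. Of 9 measured astrocyte markers, 3 were called higher in NB_Control, 4 higher in NB_Stim and 4 lower in A_FACS, at 11.89 to 11.95, 11.68 to 12.21 and 10.46 to 10.77 against 11.44 to 11.59. Of 8 measured neuronal markers, 2 were called lower in each group than in NB_FACS and 1 higher in NB_Stim, at summed levels between 12.05 and 12.83 over all arrays. The part of these cells in the values below was not tested, and in such bulk samples fewer cells of a type and less RNA per cell cannot be told apart.

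Culture went with opposite changes of the stearoyl-CoA desaturase genes and with higher Insig2, whose probe was kept only through the cultured groups. Of the 8 enzymes from lanosterol to cholesterol, 3 were called higher in NB_Control, and of the 7 mevalonate genes 1 was. The median log2 differences of these 2 parts, 0.37 and 0.33, were close. Of the 30 members, 7 were called higher in NB_Control than in NB_FACS (15.8% of all genes were called higher) and 2 were called lower (13.9% of all genes). The 9 calls, 30% of the members, were close to the 29.7% of all genes called in either direction. The median log2 difference over the members was 0.31, beside 0.09 over all genes, and 0.02 without NB_Control replicate 3. The groups did not overlap for 11 members (44.2% of all genes), 9 of them higher (24% of all genes) and 2 lower (20.2% of all genes).

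With the cytokines, Insig1 was lower. Insig1 was the only one of the 30 members called lower in NB_Stim than in NB_Control, and 0 were called higher (2% of all genes were called lower and 1.4% higher). The 1 call was 3.33% of the members beside 3.4% of all genes, while 8 members reached an unadjusted p under 0.05. The median log2 difference was -0.2 over the members and 0 over all genes, and it was -0.11 without NB_Stim replicate 1, -0.09 without NB_Stim replicate 2, -0.3 without NB_Stim replicate 3 and -0.04 without NB_Control replicate 3. The groups did not overlap for 10 members (24% of all genes), 3 higher (10.1% of all genes) and 7 lower (13.8% of all genes). With the replicate number as a block, 3 members were called lower, Insig1 (adjusted p 0.0271), Lss (-0.79, adjusted p 0.0263) and Nsdhl (-0.58, adjusted p 0.0326), beside 1197 rather than 666 of all genes. The Lss value rests in part on probes that were dim in NB_Stim, and on its bright probe alone the 2 groups overlapped.

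Cells cultured with cytokines still differed from sorted newborn cells. Of the 30 members, 4 were called higher in NB_Stim than in NB_FACS (16% of all genes were called higher) and 4 lower (15.1% of all genes). Together they were 26.7% of the members beside 31.1% of all genes, the median log2 difference was 0.1 beside 0.11, and the groups did not overlap for 12 members beside 43.5% of all genes, 6 higher (23.6% of all genes) and 6 lower (20% of all genes). The median was -0.09 without NB_Stim replicate 3 and 0.06 without NB_FACS replicate 1 or 2. Members called higher fell to 2 without NB_FACS replicate 1 or 2 or NB_Stim replicate 1, and members called lower fell to 2 without any of these or NB_Control replicate 1 or 2. NB_FACS is shared by this comparison, the culture comparison and the adult comparison, and NB_Control is shared by the culture and cytokine comparisons, so their values are given side by side for each gene.

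In adult cells, called members were lower than in sorted newborn cells. Of the 30 members, 7 were called lower in A_FACS than in NB_FACS (12.9% of all genes were called lower) and 0 were called higher, with 10 members at an unadjusted p under 0.05. The calls made up 23.3% of the members beside 22.7% of all genes in either direction. The difference was negative for 27 of 30 members, the median was -0.51 beside -0.01 over all genes, and the groups did not overlap for 18 members (51.2% of all genes), 17 of them lower (26.8% of all genes) and 1 higher (24.5% of all genes). Both adult arrays were on slide 1, within which the median was -0.45 and 26 of 30 members were lower. Without A_FACS replicate 1 the median was -0.32 and 2 members were called, and without NB_FACS replicate 2 there were 4. A_FACS had the lowest mean of the 4 groups for 21 members and NB_Control the highest for 15.

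**Figure D1:**
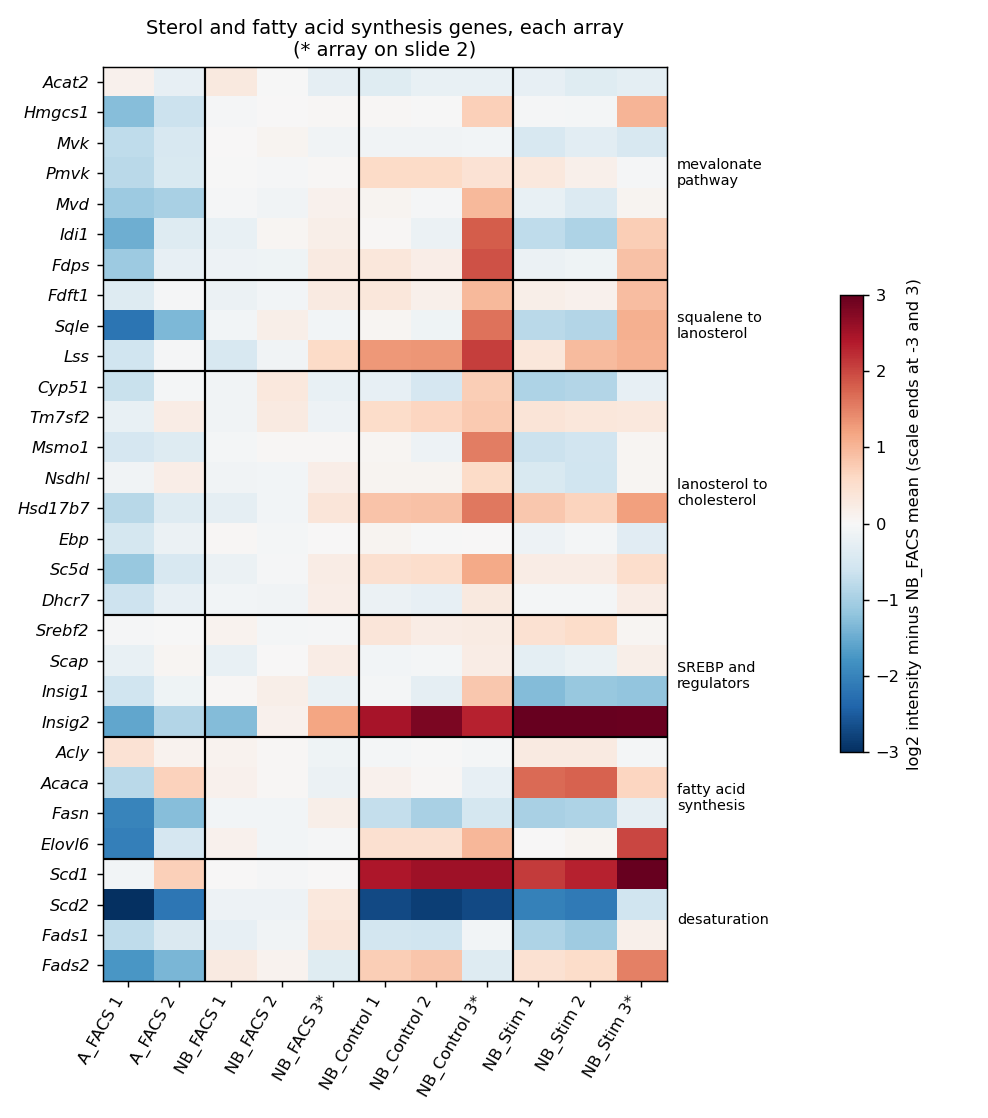
Log2 intensity of each of the 30 measured members (rows, by role) on each of the 11 arrays (columns), minus the mean of the 3 NB_FACS arrays. Red is higher and blue lower, the colours end at -3 and 3, and asterisks mark arrays on slide 2. Scd1 and Insig2 are red and Scd2 is blue on the 6 cultured arrays, and most rows are blue on the 2 adult arrays.

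**Figure D2:**
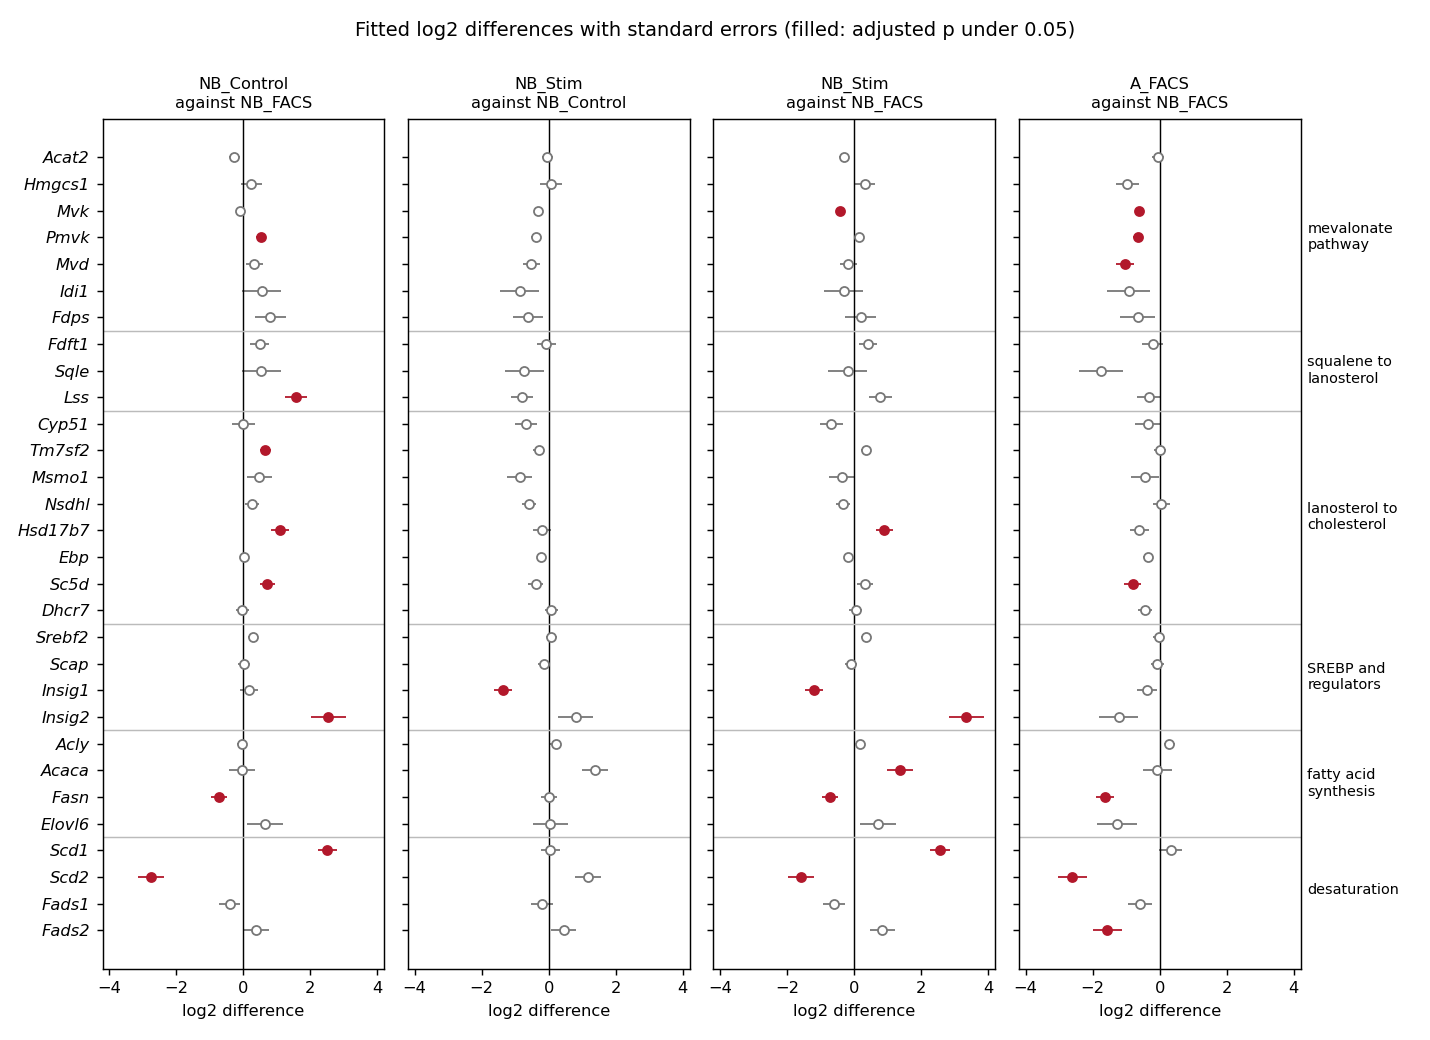
Fitted log2 differences of the 30 measured members (rows, by role) in the 4 comparisons, with bars for the standard error and filled points for genes called at an adjusted p under 0.05. Of the filled points, 7 lie above 0 and 2 below in the culture comparison, 1 lies below 0 in the cytokine comparison, 4 lie on each side against sorted cells and 7 lie below 0 in the adult comparison.

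The desaturases introduce double bonds into fatty acids, and the 2 stearoyl-CoA desaturase genes were called in opposite directions in culture. Scd1 encodes a stearoyl-CoA desaturase known best from liver and fat, and Scd2 the form most abundant in brain. The log2 level of Scd1 was 5.89, 5.84 and 5.87 on the NB_FACS arrays, 8.3, 8.4 and 8.41 in NB_Control, 7.96, 8.18 and 9.14 in NB_Stim and 5.79 and 6.58 in A_FACS. Every cultured array lay above every sorted array. Scd1 was 5.68-fold higher in NB_Control than in NB_FACS (8.37 ± 0.061 against 5.86 ± 0.022, SD, n = 3 each, difference 2.51 log2 units, SE 0.29, adjusted p 0.000169) and 5.9-fold higher in NB_Stim (8.43 ± 0.63, log2 difference 2.56, SE 0.29, adjusted p 0.000148). The log2 difference of Scd1 was 0.05 between NB_Stim and NB_Control (95% interval -0.6 to 0.71) and 0.32 between A_FACS and NB_FACS (-0.42 to 1.06), and neither was called.

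Scd2 went the other way. Its log2 level was 14.32, 14.32 and 14.79 in NB_FACS, 11.78, 11.65 and 11.76 in NB_Control, 12.44, 12.35 and 13.89 in NB_Stim and 11.43 and 12.3 in A_FACS. The NB_FACS arrays lay above all others, and the NB_Stim arrays lay above the NB_Control arrays. Scd2 was 6.71-fold lower in NB_Control than in NB_FACS (11.73 ± 0.074 against 14.48 ± 0.27, n = 3 each, difference -2.75 log2 units, SE 0.39, adjusted p 0.000506), 3-fold lower in NB_Stim (12.89 ± 0.86, -1.58, SE 0.39, adjusted p 0.0111) and 6.13-fold lower in A_FACS (11.86 ± 0.61, n = 2, -2.61, SE 0.43, adjusted p 0.00228). The rise from NB_Control to NB_Stim, 1.16 on the log2 scale, was not called (adjusted p 0.169), and it was 0.68 within slide 1 and 2.13 within slide 2. The call of Scd2 in NB_Stim against NB_FACS was lost when cultured replicates 1 and 2 were averaged and by Tukey's test, while those of Scd1 and of Scd2 in the other comparisons held in all 23 alternative settings.

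**Figure D3:**
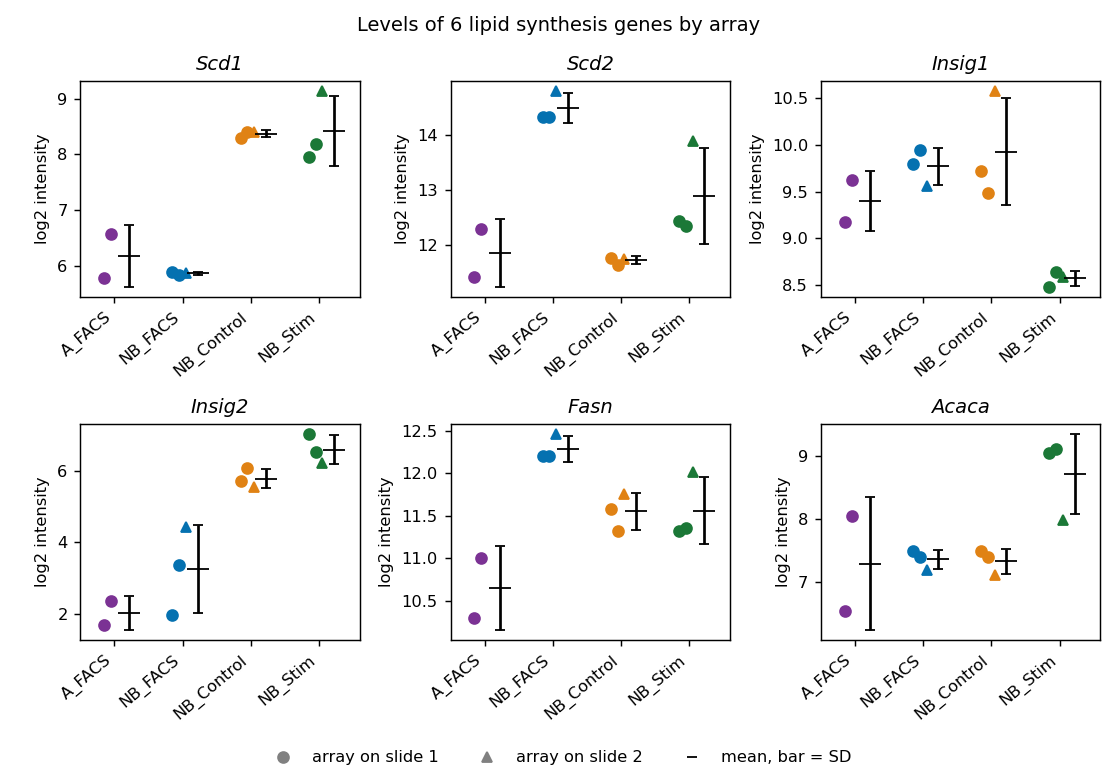
Log2 intensity of Scd1, Scd2, Insig1, Insig2, Fasn and Acaca on each array by group, with circles for slide 1, triangles for slide 2 and black lines for the group mean with its SD (n = 2 for A_FACS, 3 for the others). Each panel has its own vertical axis, which does not start at 0. The cultured arrays lie above the sorted arrays for Scd1 and below the NB_FACS arrays for Scd2 and Fasn.

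Fads1 and Fads2 encode the delta-5 and delta-6 desaturases of polyunsaturated fatty acids. The log2 level of Fads2 was 6.25, 6.07 and 5.6 in NB_FACS, 6.71, 6.8 and 5.58 in NB_Control, 6.44, 6.53 and 7.48 in NB_Stim and 4.22 and 4.61 in A_FACS. Both adult arrays lay below every newborn array, and replicate 3 was the lowest array of NB_Control and the highest of NB_Stim. Fads2 was 2.95-fold lower in A_FACS than in NB_FACS (4.41 ± 0.28, n = 2, against 5.98 ± 0.34, n = 3, difference -1.56 log2 units, SE 0.42, adjusted p 0.0243), a call lost without either adult array and without NB_FACS replicate 1 or 2. Fads1 lay between 11.69 and 13.11 on the log2 scale over the 11 arrays and was called in no comparison, with its largest log2 difference in NB_Stim against NB_FACS (-0.61, adjusted p 0.177).

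Fatty acid synthesis proper did not move as 1 block. Fasn, the synthase that builds palmitate, had log2 levels of 12.2, 12.2 and 12.46 in NB_FACS, 11.58, 11.32 and 11.75 in NB_Control, 11.32, 11.35 and 12.01 in NB_Stim and 10.3 and 11 in A_FACS. No other array reached the NB_FACS arrays. Fasn was 3.1-fold lower in A_FACS (10.65 ± 0.49, n = 2, against 12.29 ± 0.15, n = 3, difference -1.63 log2 units, SE 0.27, adjusted p 0.00226), a call that held in all 23 alternative settings. In both cultured groups its log2 difference from NB_FACS was -0.73 (NB_Control 11.55 ± 0.22, SE 0.24, adjusted p 0.0442, and NB_Stim 11.56 ± 0.39, SE 0.24, adjusted p 0.0445). Each of these 2 calls was lost in 12 of the 23 settings, among them without any 1 of the NB_FACS or NB_Control arrays and without NB_Stim replicate 1 or 2.

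Acaca, the cytosolic acetyl-CoA carboxylase that commits acetyl-CoA to fatty acids, was measured by 3 probes. Its log2 level was 7.49, 7.39 and 7.19 in NB_FACS, 7.49, 7.39 and 7.1 in NB_Control, 9.05, 9.12 and 7.99 in NB_Stim and 6.54 and 8.04 in A_FACS. The NB_Stim arrays lay above every other newborn array, on each of the 3 probes against NB_Control, and the adult arrays lay far apart. Acaca was 2.57-fold higher in NB_Stim than in NB_FACS (8.72 ± 0.64 against 7.36 ± 0.15, n = 3 each, difference 1.36 log2 units, SE 0.39, adjusted p 0.0239), a call lost without any 1 of the NB_FACS arrays and without NB_Stim replicate 1 or 2. The difference of NB_Stim from NB_Control was of like size (1.39, SE 0.39, 95% interval 0.52 to 2.27) and was not called (adjusted p 0.0988), but it was called with slide as a block and without A_FACS replicate 1, A_FACS replicate 2 or NB_Stim replicate 3.

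Acly, which makes cytosolic acetyl-CoA from citrate, varied least of these enzymes, with log2 levels between 9.76 and 10.34 on the 11 arrays and no call. Elovl6, the elongase of palmitate, had log2 levels of 6.1, 5.88 and 5.94 in NB_FACS, 6.46, 6.45 and 6.96 in NB_Control, 5.99, 6.06 and 7.97 in NB_Stim and 3.93 and 5.48 in A_FACS. The NB_Control arrays lay above and the adult arrays below those of NB_FACS, but 1 array stood apart in NB_Stim and the adult arrays differed by more than 1 unit. None of its differences was called, the log2 difference of A_FACS from NB_FACS being -1.27 (adjusted p 0.16, and called without NB_Stim replicate 3).

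Among the regulators, the INSIG genes, whose products retain the SREBP and SCAP complex, differed from each other. The log2 level of Insig1 was 9.8, 9.95 and 9.56 in NB_FACS, 9.72, 9.49 and 10.58 in NB_Control, 8.48, 8.64 and 8.59 in NB_Stim and 9.17 and 9.63 in A_FACS. The 3 NB_Stim arrays lay below the other 8 and close to each other. Insig1 was 2.57-fold lower in NB_Stim than in NB_Control (8.57 ± 0.082 against 9.93 ± 0.58, n = 3 each, difference -1.36 log2 units, SE 0.27, adjusted p 0.0224) and 2.3-fold lower than in NB_FACS (9.77 ± 0.2, -1.2, SE 0.27, adjusted p 0.00651). Within slide 1 the log2 difference from NB_Control was -1.05, and within slide 2 it was -1.99. The call against NB_Control was lost without NB_Control replicate 1 and without any 1 of the NB_Stim arrays (log2 differences -1.58 to -1.03 over the arrays left out), when only these 2 groups were fitted, when replicates 1 and 2 were averaged and by Tukey's test.

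Insig2 was low in sorted cells and higher in culture. Its log2 level was 1.95, 3.37 and 4.42 in NB_FACS, 5.72, 6.07 and 5.56 in NB_Control, 7.03, 6.52 and 6.22 in NB_Stim and 1.68 and 2.36 in A_FACS. Its 1 probe was well above background on all 6 cultured arrays, on 1 of 3 NB_FACS arrays and on neither adult array, where only a bound is known. The filter on dim probes kept it only through the cultured groups, where it was high. The tests of Insig2 against NB_FACS therefore lend no separate support to that rise. The cultured arrays lay above all sorted arrays, and the NB_Stim arrays lay above the NB_Control arrays. The fitted log2 difference from NB_FACS was 2.53 in NB_Control (5.78 ± 0.26 against 3.25 ± 1.2, n = 3 each, SE 0.52, adjusted p 0.00445) and 3.34 in NB_Stim (6.59 ± 0.41, SE 0.52, adjusted p 0.000928). Taking each dim NB_FACS array at the lowest signal well above background on it (mean 4.04) gave levels at least 3.36-fold higher in NB_Control and at least 5.86-fold higher in NB_Stim. Against the adult arrays, taken likewise, Insig2 was at least 5.81-fold higher in NB_Control and at least 10.1-fold higher in NB_Stim, comparisons that were not tested. The difference of NB_Stim from NB_Control (0.8, 95% interval -0.36 to 1.97) was not called, and no fold is given between adult and newborn sorted cells.

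Srebf2, the factor that drives most sterol enzymes, and Scap, its escort, varied little, with log2 levels of 9.7 to 10.31 and 9.68 to 10.19 over the 11 arrays and no call. The largest log2 difference of Srebf2 was 0.36 in NB_Stim against NB_FACS (adjusted p 0.0957, called with slide as a block, without NB_Stim replicate 3 and on slide 1 alone). For Scap the 95% intervals of the 4 log2 differences lay between -0.54 and 0.43.

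Of the mevalonate enzymes, Mvd, Mvk and Pmvk were called lower in adult cells. All 7 measured had negative differences in A_FACS against NB_FACS (median -0.66 on the log2 scale), and 4 of them were not called. Mvd, which decarboxylates mevalonate diphosphate, had log2 levels of 9.11, 9.03 and 9.27 in NB_FACS and 8.04 and 8.17 in A_FACS, 2.05-fold lower (8.1 ± 0.093, n = 2, against 9.14 ± 0.12, n = 3, difference -1.04 log2 units, SE 0.28, adjusted p 0.026). The kinases before it, Mvk (9.18 and 9.46 in A_FACS against 9.96, 10.01 and 9.84) and Pmvk (7.87 and 8.22 against 8.67, 8.66 and 8.73), were lower by smaller amounts (-0.61, adjusted p 0.0119, and -0.65, adjusted p 0.0159). The adult and newborn arrays did not overlap for these 3 genes. The calls of all 3 were lost without A_FACS replicate 1, and that of Mvd also without A_FACS replicate 2 or any 1 NB_FACS array.

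In culture these enzymes divided. Mvd had log2 levels of 9.21, 9.09 and 10.11 in NB_Control and 8.92, 8.73 and 9.21 in NB_Stim, overlapped NB_FACS in both and was not called. Pmvk was higher in NB_Control, at 9.27, 9.27 and 9.12 on the log2 scale (0.53 above NB_FACS, SE 0.14, adjusted p 0.017), and was 9, 8.85 and 8.66 in NB_Stim, where the difference of 0.15 from NB_FACS was not called. The call was lost without NB_FACS replicate 1 or 2 and without NB_Control replicate 1 or 2. Mvk was 9.83, 9.82 and 9.85 in NB_Control and 9.46, 9.63 and 9.46 in NB_Stim, below every other newborn array, and it was called lower in NB_Stim than in NB_FACS (9.52 ± 0.099 against 9.93 ± 0.089, n = 3 each, difference -0.42 log2 units, SE 0.13, adjusted p 0.0296). That call was lost in 9 of the 23 settings, 6 of them without 1 array (NB_FACS 1 or 2, NB_Control 1 or 2, NB_Stim 1 or 3).

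Hmgcs1, which forms HMG-CoA, had log2 levels of 10.96, 11.01 and 11.05 in NB_FACS, 11.05, 10.99 and 11.71 in NB_Control, 10.97, 10.94 and 12.03 in NB_Stim and 9.72 and 10.36 in A_FACS. The adult arrays were the lowest, and the log2 difference of -0.97 from NB_FACS was not called (adjusted p 0.0778, called among other settings on slide 1 alone and without NB_Stim replicate 3). Idi1, the isomerase that makes dimethylallyl diphosphate, had log2 levels of 8.45 and 8.24 in NB_Control replicates 1 and 2 and 10.23 in replicate 3, and of 7.65, 7.49 and 9.16 in NB_Stim. Fdps, the farnesyl diphosphate synthase, likewise had 10.03, 9.9 and 11.6 in NB_Control and 9.52, 9.56 and 10.58 in NB_Stim. Neither was called in any comparison, apart from Fdps, which was called higher in NB_Control than in NB_FACS with the slide block, and Acat2, the cytosolic thiolase that starts the pathway, lay between 7.36 and 8 on all 11 arrays.

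From squalene to lanosterol, Lss, which cyclises epoxidised squalene, was the gene called. Its log2 level, the mean of 3 probes, was 3.73, 4.11 and 4.78 in NB_FACS, 5.51, 5.53 and 6.29 in NB_Control, 4.55, 5.15 and 5.26 in NB_Stim and 3.61 and 4.17 in A_FACS. On this mean all NB_Control arrays lay above all others. Lss was 2.97-fold higher in NB_Control than in NB_FACS (5.78 ± 0.44 against 4.21 ± 0.53, n = 3 each, difference 1.57 log2 units, SE 0.33, adjusted p 0.00482), a call lost only by Tukey's test among the 23 settings. That fold rests in part on 2 probes that were above background on 1 of 3 NB_FACS and 1 of 3 NB_Stim arrays, and so is approximate. The filter on dim probes kept these 2 only through NB_Control, where Lss was highest. The call on all 3 probes therefore lends no separate support to the rise. The third probe, bright on all arrays, gave 2.38-fold (1.25 log2 units, SE 0.28, adjusted p 0.0072) and read 6.97, 7.24 and 7.31 in NB_FACS and 8.15, 8.09 and 9.02 in NB_Control. In NB_Stim this probe read 7.58, 7.57 and 8.12 and overlapped NB_Control. On the mean of 3 probes, the log2 difference of NB_Stim from NB_FACS, 0.78, was not called (adjusted p 0.101). It was called with the replicate block (adjusted p 0.0052), with the slide block, without NB_FACS replicate 3 and on slide 1 alone.

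Sqle, the squalene epoxidase, had log2 levels of 8.73, 8.99 and 8.74 in NB_FACS, 8.89, 8.7 and 10.45 in NB_Control, 8.01, 7.94 and 9.89 in NB_Stim and 6.64 and 7.48 in A_FACS. The adult arrays were the lowest, by 1.76 in the mean (SE 0.65, adjusted p 0.08), and replicate 3 of each cultured group lay more than 1 unit above replicates 1 and 2. The adult difference of Sqle was called with only these 2 groups fitted, without NB_Control replicate 3, without NB_Stim replicate 3 and on slide 1 alone. Fdft1, the squalene synthase, was called in no comparison, although with the replicate block it was called higher in NB_Control than in NB_FACS (0.49, adjusted p 0.03).

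Of the 8 enzymes from lanosterol to cholesterol, 3 were called higher in NB_Control, beside 15.8% of all genes. Their median log2 difference from NB_FACS was 0.08, 0.04 and 0.76 on NB_Control replicates 1, 2 and 3. Hsd17b7, a ketoreductase of C4 demethylation, had log2 levels of 6.76, 6.94 and 7.38 in NB_FACS, 7.88, 7.91 and 8.6 in NB_Control, 7.84, 7.69 and 8.25 in NB_Stim and 6.2 and 6.64 in A_FACS. Every cultured array lay above every sorted one. Hsd17b7 was 2.14-fold higher in NB_Control (8.13 ± 0.41 against 7.03 ± 0.32, n = 3 each, difference 1.1 log2 units, SE 0.26, adjusted p 0.00875) and 1.87-fold higher in NB_Stim (7.93 ± 0.29, 0.9, SE 0.26, adjusted p 0.023). The second call was lost without NB_FACS replicate 1 or 2 and without NB_Stim replicate 1 or 3.

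Tm7sf2, a sterol reductase, had log2 levels of 8.21, 8.59 and 8.17 in NB_FACS and 8.87, 8.97 and 9.1 in NB_Control, 0.66 higher (SE 0.16, adjusted p 0.0122, not called on slide 1 alone). Sc5d, the lathosterol desaturase, had log2 levels of 8.3, 8.46 and 8.7 in NB_FACS, 8.97, 9.01 and 9.63 in NB_Control, 8.7, 8.72 and 9.01 in NB_Stim and 7.35 and 8 in A_FACS. Like Pmvk, it was called higher in NB_Control (0.72, SE 0.23, adjusted p 0.0413) and lower in A_FACS (-0.81, SE 0.26, adjusted p 0.0491). Both calls of Sc5d were near the threshold and were lost in 11 and 13 of the 23 settings, among them without NB_FACS replicate 1 or 2, NB_Control replicate 2, and NB_Stim replicate 1 or 2 in each comparison, NB_Control replicate 3 in the first, and A_FACS replicate 1, NB_FACS replicate 3 and NB_Control replicate 1 in the second.

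Msmo1, the C4 methyl oxidase, had log2 levels of 11.31, 11.4 and 11.41 in NB_FACS, 11.44, 11.23 and 12.9 in NB_Control, 10.74, 10.79 and 11.43 in NB_Stim and 10.88 and 10.98 in A_FACS. Replicate 3 of NB_Control stood 1.57 above the mean of the other 2, and the log2 difference of NB_Stim from NB_Control, -0.87, was not called (adjusted p 0.321, called on slide 1 alone). Nsdhl, a dehydrogenase of the same step, had log2 levels of 9.73, 9.74 and 10.22 in NB_Control and 9.18, 9.06 and 9.7 in NB_Stim. Its groups did not overlap, and its log2 difference of -0.58 was called once replicate number or slide was blocked, and otherwise not. Cyp51, the lanosterol demethylase, lay at 8.3, 8.35 and 9 in NB_Stim against 9.13, 9.56 and 9.02 in NB_FACS (-0.68, adjusted p 0.159, called on slide 1 alone). Ebp (11.86 to 12.47) and Dhcr7 (8.3 to 9.23), which act at later steps, were called in no comparison, although Ebp was called lower in A_FACS and in NB_Stim than in NB_FACS with 75th percentile scaling.

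Within pairs of the same replicate number, the difference of NB_Stim from NB_Control was negative in all 3 pairs for several sterol genes that were not called without a block. The numbers 1 and 2 were not shown to mark shared preparations. Idi1 differed by -0.8, -0.75 and -1.07 on the log2 scale in pairs 1, 2 and 3, Sqle by -0.88, -0.75 and -0.56, Msmo1 by -0.69, -0.44 and -1.46 and Lss by -0.97, -0.38 and -1.03. Their group ranges overlapped for all but Lss, with replicate 3 the highest array of both groups. On the bright Lss probe alone, the ranges of Lss overlapped too. By slide, 24 of 30 members had negative differences on slide 1 (median log2 difference -0.28) and 21 were on slide 2 (-0.26). The 8 measured genes of fatty acid synthesis and desaturation were mixed. Acaca (1.56, 1.73 and 0.88) and Scd2 (0.66, 0.7 and 2.13) were positive in all 3 pairs, and Acly was positive in pairs 1 and 2 and -0.01 in pair 3. Scd1 (-0.34, -0.22 and 0.73), Elovl6 (-0.47, -0.39 and 1.01), Fads1 (-0.39, -0.46 and 0.24) and Fads2 (-0.27, -0.27 and 1.9) were negative in pairs 1 and 2 and positive in pair 3, and Fasn was -0.27, 0.03 and 0.26.

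Replicate 3 of the cultured groups stood above replicates 1 and 2 for part of the members. The median SD over the members was 0.288 in NB_Control, 0.384 in NB_Stim, 0.184 in NB_FACS and 0.311 between the 2 adult arrays. In NB_Control 5 of 30 members (16.7%) had a replicate 3 more than 1 unit above the mean of replicates 1 and 2, against 3.82% of all genes, and in NB_Stim 8 of 30 (26.7%) did, against 6.46%. In NB_FACS the share was 1 of 30 (3.33%) beside 4.93%, and the member was Insig2. In NB_Control these genes were Idi1, Fdps, Sqle, Msmo1 and Cyp51, and in NB_Stim they were Sqle, Elovl6, Idi1, Scd2, Fads1, Scd1, Hmgcs1 and Fdps. The median of replicate 3 minus the others over the members was 0.49 in NB_Control, 0.45 in NB_Stim and 0.06 in NB_FACS, beside -0.02, 0 and 0.06 over all genes. The median log2 difference of NB_Control from NB_FACS was 0.05 on slide 1 and 0.68 on slide 2. Slide, scan and replicate 3 coincided, so these cannot be told apart. Marker lists differed as well. Replicate 3 was the highest array for 14 of 15 proliferation genes in NB_Control (median difference 0.44), 12 in NB_Stim (0.58) and 11 in NB_FACS (0.2). Over all genes it was highest for 41.6%, 43.6% and 46.4% in that order. Of 9 microglial markers it was highest for 0 in NB_Control (-0.62), 7 in NB_Stim (0.09) and 3 in NB_FACS (-0.03). In NB_Stim, replicate 3 was the highest array for all 9 measured astrocyte markers (median difference 0.64) and the lowest for all 7 fibroblast markers (-1.01). Of 6 oligodendrocyte lineage markers, 3 lay more than 1 unit above replicates 1 and 2, and 3 were lowest. In NB_Control, replicate 3 was highest for 2 of 9 astrocyte markers and lowest for all 6 oligodendrocyte lineage markers. Their part in the member values was not tested.

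**Figure D4:**
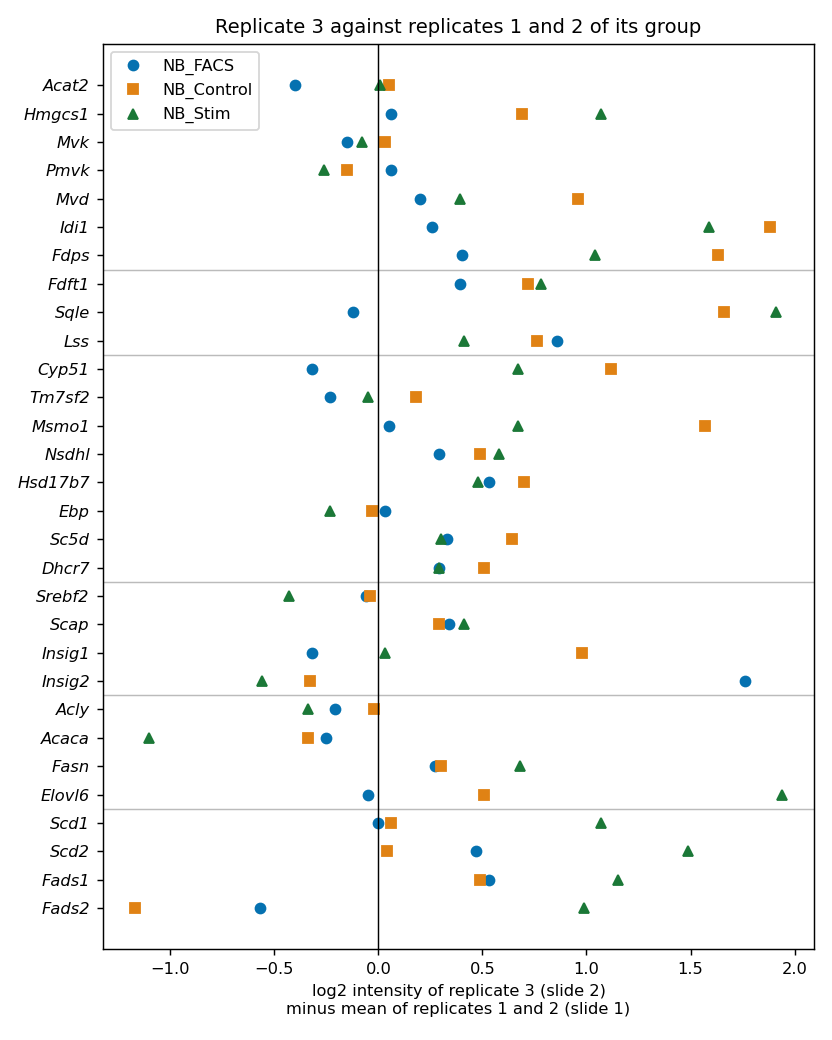
Log2 intensity of replicate 3 (slide 2) minus the mean of replicates 1 and 2 (slide 1) for each of the 30 measured members, by role, in NB_FACS (circles), NB_Control (squares) and NB_Stim (triangles). Idi1, Fdps, Sqle and Msmo1 lie between 1.57 and 1.88 in NB_Control, and Elovl6 and Sqle lie at 1.94 and 1.91 in NB_Stim, while the NB_FACS points other than Insig2 lie between -0.57 and 0.86.

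Neighbouring pathways were followed through 4 further lists. Over all genes, 29.7% were called in NB_Control against NB_FACS, 3.4% in NB_Stim against NB_Control and 31.1% in NB_Stim against NB_FACS. The shares of sterol handling genes were 66.7%, 40% and 60%, and those of other fatty acid and glycerolipid genes 35%, 10% and 45%. Genes of SREBP processing had 30.8%, 15.4% and 30.8%, and those of the isoprenoid branch 45.5%, 0% and 45.5%. Of 15 measured sterol handling genes, 10 were called in NB_Control against NB_FACS, 7 higher and 3 lower, and the largest were Nceh1 (2.86, adjusted p 0.000552) and Lipa (2.58, adjusted p 4.14e-06), which both release cholesterol from its esters. In NB_Stim against NB_Control, 3 were called higher and 3 lower, led by Ch25h (2.8, adjusted p 0.0407), which makes 25-hydroxycholesterol, and Abcg1 (1.57, adjusted p 0.00523), a sterol exporter. Ch25h had log2 levels of 5.92, 6.46 and 6.52 in NB_FACS, 8.6, 8.48 and 9.02 in NB_Control, 11.42, 11.32 and 11.76 in NB_Stim and 6.6 and 9.75 in A_FACS, so that the newborn groups did not overlap and the adult arrays lay far apart. Its call against NB_Control was lost without any 1 of the 9 newborn arrays, although the log2 difference stayed between 2.67 and 2.95, and against NB_FACS (5.2, adjusted p 0.00019) it held in all 23 settings. Abcg1 had log2 levels of 14.15, 14.16 and 14.5 in NB_FACS, 11.78, 11.78 and 12.18 in NB_Control and 13.31, 13.14 and 14.01 in NB_Stim. In NB_Stim against NB_FACS 6 of the 15 were called higher and 3 lower, with Nceh1 at 2.5 (adjusted p 0.00125) after Ch25h.

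Of 20 measured genes of other fatty acid and glycerolipid steps, 4 were called higher and 3 lower in NB_Control against NB_FACS. Me1, the cytosolic malic enzyme that yields NADPH, had log2 levels of 5.28, 5.2 and 5.57 in NB_FACS, 9.18, 9.21 and 9.78 in NB_Control and 8.97, 8.99 and 9.87 in NB_Stim, 16.5-fold and 15.2-fold higher in culture (adjusted p 0.000118 and 0.000136). Thrsp, a regulator of lipogenesis, had log2 levels of 5.87, 5.92 and 5.99 in NB_FACS, 4.1, 4 and 4.29 in NB_Control, 7.4, 6.98 and 7.3 in NB_Stim and 10.62 and 10.76 in A_FACS. No 2 groups overlapped for Thrsp, which was called lower in NB_Control than in NB_FACS (-1.8, adjusted p 1.85e-05), higher in NB_Stim than in NB_Control (3.1, adjusted p 1.14e-05) and higher in A_FACS than in NB_FACS (4.76, adjusted p 5.94e-07). In NB_Stim against NB_Control 1 gene was called higher and 1 lower, Mid1ip1, which promotes polymerisation of acetyl-CoA carboxylase (-0.56, adjusted p 0.0399, lost without any 1 cultured array and without NB_FACS replicate 1 or 2). Against NB_FACS, NB_Stim had 6 called higher and 3 lower, with Dgat2, which makes triglycerides, at -1.85 (adjusted p 0.000581).

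Of 13 measured genes of SREBP processing and sterol sensing, 3 were called higher and 1 lower in NB_Control against NB_FACS, with the LXR gene Nr1h3 (1.87, adjusted p 0.00679) and its partner Rxra (1.41, adjusted p 1.89e-05) the largest. In NB_Stim against NB_Control, Mylip, an ubiquitin ligase of lipoprotein receptors, was called higher (1.04, adjusted p 0.017) and Tmem97, a regulator of NPC1, lower (-0.86, adjusted p 0.0276), calls lost without any 1 NB_Control array or NB_Stim replicate 1 and, for Tmem97, also without NB_Stim replicate 2 or 3 or NB_FACS replicate 2. In NB_Stim against NB_FACS 2 were called higher and 2 lower, with Erlin1, which binds cholesterol in the endoplasmic reticulum, at -1.45 (adjusted p 0.00393) and Rxra at 1.41 (adjusted p 1.89e-05). Of 11 measured genes of the isoprenoid branch, 3 were called higher and 2 lower in NB_Control, with Nus1 of dolichol synthesis at 1.7 (adjusted p 2.49e-05) and Pdss1 of ubiquinone synthesis at -1.2 (adjusted p 0.000485). In NB_Stim against NB_FACS 2 were called higher and 3 lower, with Pdss1 at -1.6 (adjusted p 8.55e-05) and Nus1 at 1.09 (adjusted p 0.000381), and in NB_Stim against NB_Control 0 of 11 were called while 3 reached an unadjusted p under 0.05.

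In A_FACS against NB_FACS the median log2 difference was 0.02 over the other fatty acid and glycerolipid genes, -0.06 over sterol handling, -0.07 over SREBP processing and -0.04 over the isoprenoid branch, beside -0.51 over the members. Calls made up 45%, 53.3%, 30.8% and 9.09% of these lists in that order, beside 22.7% of all genes. Of the 20 other fatty acid and glycerolipid genes, 6 were called higher and 3 lower. Thrsp was the largest rise, and Elovl1, an elongase of very long chains, followed at 1.22 (adjusted p 0.00276), although its 3 probes did not move alike and its brightest probe alone gave -0.36. Of the 15 sterol handling genes, 4 were called higher and 4 lower, with Gramd1b, a sterol transfer protein, at -2.05 (adjusted p 0.000145, not called on the brightest of its 4 probes) and Nceh1 at -1.78 (adjusted p 0.0197, lost without A_FACS replicate 1, where it was -0.87, and without NB_FACS replicate 3). Of the 13 processing genes, 3 were called higher and 1 lower, with Tmem97 at -1.68 (adjusted p 0.000336) and the ubiquitin ligase gene Syvn1 at 1.1 (adjusted p 0.00847, lost without A_FACS replicate 1). Of the 11 isoprenoid genes, Pdss1 was called lower (-0.81, adjusted p 0.0122, lost without A_FACS replicate 2). Whether these lists differed from the members was not tested.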

How the data were processed

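Total RNA of sorted or cultured microglia was hybridised to 11 Agilent arrays in a single colour. The deposited scanner files give 1 background-subtracted intensity per spot, from Feature Extraction (version 11 in the submitters' processing notes, 11.5.1.1 per the file headers). The values deposited for the whole series are the same intensity before normalisation (0 of 62927 entries differed beyond a relative tolerance of 1e-05). The authors analysed quantile normalised data, and all log2 values here were taken from the deposited intensity.

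Groups and replicate numbers came from the sample titles. Of 60037 probes, 138 were dropped because all their spots were flagged on at least 1 array. Of the probes left, 36190 (60.4%) were matched to symbols through RefSeq accessions on GRCm38.p6. Spots of a probe were averaged, log2 intensities were quantile normalised over all non-control probes, a probe was kept if 1 or more groups had it well above background throughout (44738 probes), and the probes of a gene were averaged to 19565 genes. Each gene was fitted with 1 mean per group over all 11 arrays (7 residual and 2.69 prior degrees of freedom) in limma 3.58.1 (R 4.3.3), and limma's moderated two-sided test was applied to 4 comparisons, adjusted by Benjamini-Hochberg within each comparison. The fit was tested on simulated data. Promoters were searched in Python 3.11.15, and figures were drawn with matplotlib 3.10.9.

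The members, the gene lists and the alternatives were chosen with earlier results of these data known. All members are named. Full statistics go to at most 4 rises and 4 falls among called members per comparison, and each further list names at most 2 called genes per comparison, those with the largest absolute difference. Exceptions, chosen after their values were seen, are the full statistics of called members beyond these and further values of a named list gene. Deviations from the group means correlated between same-numbered newborn arrays (r 0.27 to 0.49 between cultured groups, 0.31 to 0.45 between NB_Control and NB_FACS, 0.11 to 0.44 between NB_Stim and NB_FACS), and replicate 3 shared slide 2. Numbers 1 and 2 also correlated across numbers, at 0.34 and 0.36 between cultured groups. Across numbers they gave 0.19 and 0.19 between NB_Control and NB_FACS, and 0.35 and 0.2 between NB_Stim and NB_FACS. The numbers were used to pair the newborn arrays, but a shared preparation of arrays numbered 1 or 2 was not shown. Adult arrays (0.17 and -0.07 with NB_FACS) showed no such pairing, but the replicate block fit held them too, under their own numbers. Alternatives were 75th percentile scaling, normexp background correction with offset 50, the values deposited for the whole series, 2 other filters on dim probes, the brightest probe, slide or replicate blocks, fits of only the groups compared, averaged cultured replicates 1 and 2, Tukey's test that the methods name, each array left out and, added after seeing the data, slide 1 arrays only. Tukey's test used each gene's own variance, and its p-values were further adjusted by Benjamini-Hochberg over all genes, so it was stricter than Tukey's test alone.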

Additional observations from a re-analysis of the deposited data

How the results depend on the processing

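Over 23 alternative settings, 2600 of the members' gene-level results kept their side of the threshold, 112 lost a call, 44 gained one and 0 called results changed sign, while 33 uncalled differences changed sign in at least 1 setting. Elovl1, named from a further list, gave -0.36 in A_FACS against NB_FACS on its brightest probe, against 1.22.

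In NB_Control against NB_FACS, members called higher were 4 with cultured replicates 1 and 2 averaged and 1 by Tukey's test, and members called lower were 1 with 75th percentile scaling, without a filter on dim probes, with replicates averaged and by Tukey's test, and 1 to 2 with single arrays left out. In NB_Stim against NB_Control, members called higher were 1 with the slide block and 0 to 1 with single arrays left out, and members called lower were 2 with the slide block, 3 with the replicate block, 0 with only the groups compared, with replicates averaged and by Tukey's test, 2 on slide 1 alone and 0 to 1 with single arrays left out. In NB_Stim against NB_FACS, members called higher were 7 with the slide block, 2 with replicates averaged and by Tukey's test and 2 to 4 with single arrays left out, members called lower were 2 without a filter and with only the groups compared, 1 with replicates averaged and by Tukey's test, 9 on slide 1 alone and 2 to 4 with single arrays left out, and the median over members was -0.09 to 0.12 with single arrays left out, lowest without NB_Stim replicate 3. In A_FACS against NB_FACS, members called lower were 3 by Tukey's test and 2 to 10 with single arrays left out (2 without A_FACS replicate 1, 4 without NB_FACS replicate 2), and the median was -0.75 to -0.32, lowest without A_FACS replicate 2.

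Blocking by replicate number (replicate block), in a fit that held the adult arrays too, also called Fdft1 higher in NB_Control against NB_FACS (0.49). In NB_Stim against NB_FACS the replicate block called Lss higher (0.78) and Fads1 lower (-0.61). Beyond Lss and Nsdhl in NB_Stim against NB_Control, it changed no other call of a member in the newborn comparisons. Over all genes, called in NB_Stim against NB_Control were 1008 with normexp, 1476 with the slide block, 1197 with the replicate block, 115 with replicates averaged, 183 by Tukey's test, 1030 on slide 1 alone and 304 to 337 without NB_Control or NB_Stim replicate 1 or 2, against 666. Tukey's test called 3546, 3620 and 2015 genes in NB_Control and NB_Stim against NB_FACS and in A_FACS against NB_FACS, where fitting only the groups compared called 2925 and leaving out A_FACS replicate 1 called 2456, against 5813, 6087 and 4439. The causes were not tested. When a group was left with 1 array, that array was assumed to vary like those of the other groups. Insig2 gave no value when probes had to be above background on all arrays. Signal over background limits Insig2 and 2 of the 3 Lss probes.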
